A study of Mus musculus with 10 samples.

Results

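Astrocytes are the glial cells that surround synapses and blood vessels. They clear glutamate and potassium from the extracellular space, pass metabolites and ions to each other through connexin channels, and store glycogen. The genes that carry out this routine work are often called homeostatic, in contrast to the reactive genes that astrocytes switch on after injury. The 35 astrocyte homeostatic genes described here were taken as a given list of symbols, chosen with earlier results of these data known. All 35 were found among the 47632 gene rows of the table by matching versioned Ensembl IDs to mouse symbols. They comprise 4 genes of glutamate and amino acid handling, 10 of channels, transporters and junctions, 6 of metabolism, 7 of receptors, signalling and transcription factors, and 8 of secreted and surface proteins.

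Total RNA came from the striatum of mice harvested at 11 weeks of age, with 5 libraries from R6/2 hemizygous animals and 5 from isogenic wild-type controls. R6/2 is a transgenic model of Huntington's disease that expresses the first exon of human huntingtin, with its CAG repeat expanded, under the human gene's promoter, so the transgene is not limited to neurons or to astrocytes. Whether every library stands for a separate animal is not said in the labels, and the p-values therefore reflect only how these samples vary, part of which may be technical. Values are FPKM (fragment counts divided by transcript length and by the number of mapped fragments), and the depth behind them is unknown.

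Many of these genes were lower in R6/2 striatum and none was called higher. Genes of glutamate uptake and conversion (Slc1a2, Glul), bicarbonate transport (Slc4a4), gap junctions (Gja1) and glycogen regulation (Ppp1r3c) were among those that fell. So were Id4, Ndrg2 and the neurotensin receptor gene Ntsr2, while Aqp4, Gjb6, Aldoc, S100b and Acsbg1 were not called. All 35 genes averaged 1 FPKM or more over the 10 libraries and were tested with limma on log2(FPKM + 1), R6/2 minus control, with Benjamini-Hochberg adjustment over all 15905 genes tested and a threshold of 0.05. Of the 35, 17 were called lower and 0 higher (24 had an unadjusted p under 0.05), a share of 48.6% called lower where 9.11% of all genes tested were called lower and 5% higher. The median log2 change of the 35 was -0.42, beside 0.001 for all genes tested. In 14 of the 35 every R6/2 value lay below every control value, which was so for 8.58% of all genes tested. In 0 of the 35 every R6/2 value lay above, which was so for 4.5%. Since the list was chosen with earlier results of these data known, these shares describe it and are no test of enrichment. The 17 genes called lower stood at between 33.4% (Id4) and 75.9% (Sparcl1) of their control mean, on the FPKM scale. The RNA comes from whole tissue, and some of these genes, such as Fgfr2, are also expressed by other cells. Fewer astrocytes, less RNA per astrocyte and a change in such other cells cannot be told apart.

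**Figure D1:**
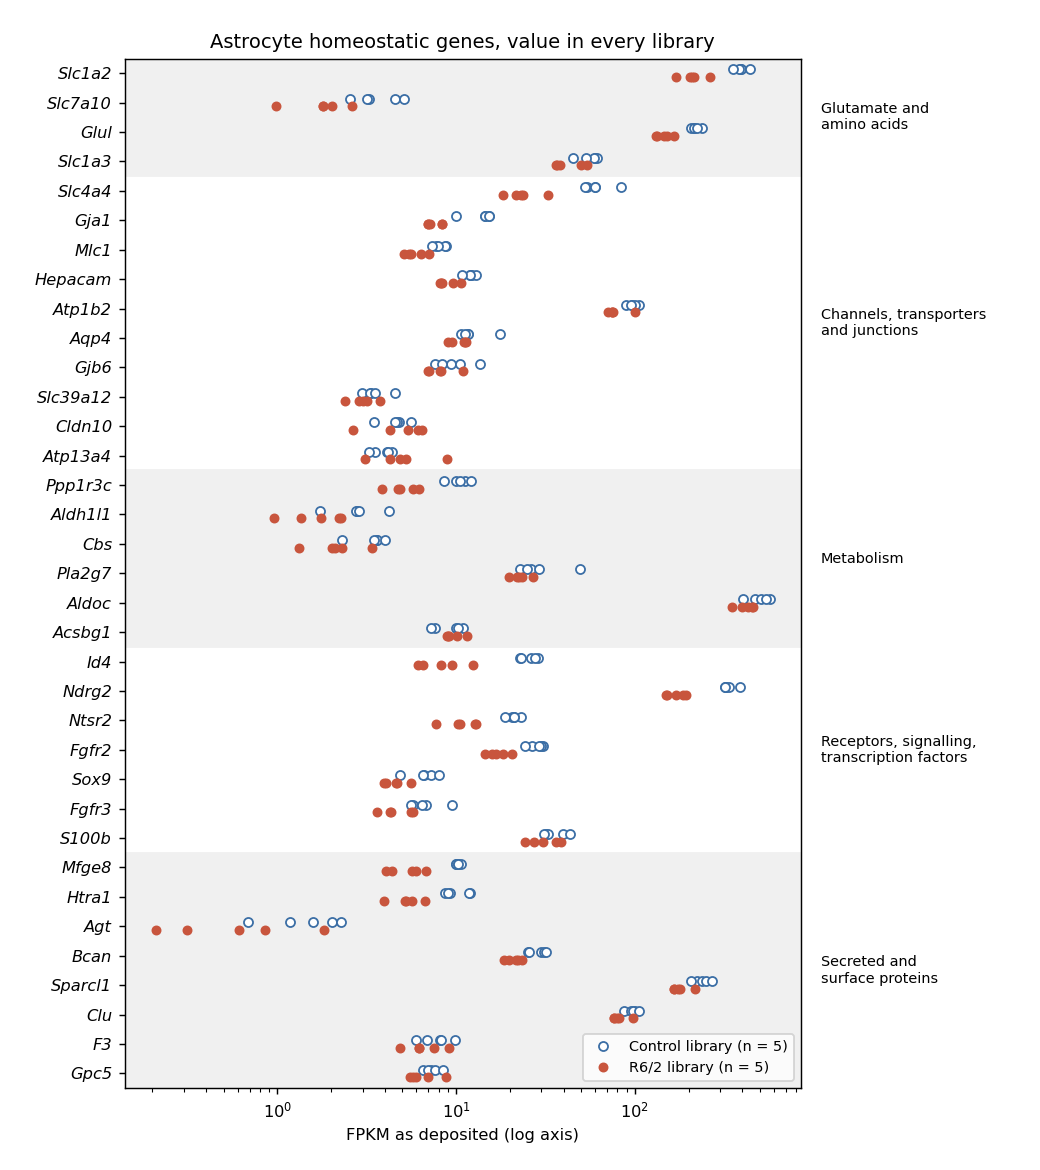
FPKM of each of the 35 astrocyte homeostatic genes in each library on a log axis, with open blue circles for the 5 control and filled red circles for the 5 R6/2 libraries, grouped by role. In 14 genes, among them Slc1a2, Glul, Slc4a4, Ndrg2 and Id4, the red points all lie to the left of the blue ones.

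The 35 genes together summed to 2319.5 ± 92.4 FPKM in controls and 1575.5 ± 83.9 FPKM in R6/2 (SD, n = 5), or 67.9% of the control level. They made up 1.016% to 1.13% of the summed FPKM of nuclear protein-coding genes in the control libraries and 0.754% to 0.831% in the R6/2 libraries, so the groups did not overlap on that scale either. The 5 most abundant genes, Aldoc, Slc1a2, Ndrg2, Sparcl1 and Glul, carried 72.8% of the sum in controls. Abundant and scarce members had like medians: 4 of 7 genes averaging 50 FPKM or more were called lower (median log2 change -0.40), as were 13 of 28 genes below that level (median -0.43). When each library was rescaled to a single total of protein-coding genes, which moved the median of all genes tested to 0.09, 11 of the 35 were called lower and 0 higher, with a median of -0.31, where 7.14% of all genes tested were called lower. The genes that lost their call under that rescaling were Slc7a10, Mlc1, Hepacam, Sox9, Bcan and Sparcl1.

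Promoter sequence is shown for 4 genes chosen after their values were seen, as examples: Id4 and Mfge8, which fell and hold many GC boxes, and the connexin pair Gja1 and Gjb6, of which Gja1 alone was called. Each line gives the 250 bases before the start site, 5′ to 3′ on the gene's strand, from RefSeq's GRCm38.p6 table, at chr13:48260866-48261115 (plus strand), chr7:79149061-79149310 (minus strand), chr10:56377050-56377299 (plus strand) and chr14:57133612-57133861 (minus strand). Capitals mark GC boxes on either strand.
Id4: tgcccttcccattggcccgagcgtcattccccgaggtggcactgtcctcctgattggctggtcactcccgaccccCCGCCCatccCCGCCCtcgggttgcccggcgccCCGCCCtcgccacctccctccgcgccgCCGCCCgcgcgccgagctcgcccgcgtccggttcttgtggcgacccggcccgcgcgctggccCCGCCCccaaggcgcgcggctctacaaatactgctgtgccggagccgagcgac
Mfge8: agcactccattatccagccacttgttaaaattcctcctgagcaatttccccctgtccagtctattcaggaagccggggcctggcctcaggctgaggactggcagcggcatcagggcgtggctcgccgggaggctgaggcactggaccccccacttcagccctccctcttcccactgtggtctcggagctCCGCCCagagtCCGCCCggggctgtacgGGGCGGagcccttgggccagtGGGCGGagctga
Gja1: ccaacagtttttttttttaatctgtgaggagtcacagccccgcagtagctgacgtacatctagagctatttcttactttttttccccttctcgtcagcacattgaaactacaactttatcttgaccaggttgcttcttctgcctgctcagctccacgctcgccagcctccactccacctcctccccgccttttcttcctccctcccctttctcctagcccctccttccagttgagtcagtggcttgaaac
Gjb6: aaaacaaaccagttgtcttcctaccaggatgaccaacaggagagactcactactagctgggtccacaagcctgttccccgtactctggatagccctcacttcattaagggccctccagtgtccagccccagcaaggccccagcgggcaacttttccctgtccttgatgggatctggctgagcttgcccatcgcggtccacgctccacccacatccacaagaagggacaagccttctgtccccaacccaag
The stretch of Id4 holds 5 GC boxes and that of Mfge8 holds 4, while those of Gja1 and Gjb6 hold 0.

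Promoters of 300 bases (250 before the start site and 50 after it) were matched by symbol for 30 of the 35 genes, in 37 windows. Aqp4, Atp1b2, Sox9, Clu and Sparcl1 had no entry. The GC box GGGCGG, searched on both strands, was found in 18 of the 30 genes, beside 38.2% of all 27025 genes in the table, and in 8 of 15 genes called lower and 10 of 15 not called. The SOX core ACAAAG was found in 4 of the 30 (21% of all genes), of which Hepacam was called lower. TATAAA was found in 6 of the 30 (15.7% of all genes), of which Ndrg2 was called lower, and the nuclear factor I full site TGGCNNNNNGCCA in 0 of the 30 (0.925% of all genes). A match is a description of letters and not a bound site. The median GC content was 56.3% in the 37 windows and 52.7% in all 32851 windows of the table, and the GC and TATA boxes were added after the expression values were seen.

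Of the 4 genes of glutamate and amino acid handling 3 were called lower and 0 higher (median log2 change -0.66). Slc1a2 encodes GLT-1, the main glutamate transporter of forebrain astrocytes (ENSMUSG00000005089.15, GRCm38 chromosome 2, 102658659 to 102790784). It was at 392, 391, 439, 385 and 354 FPKM in Controls 1 to 5 and at 214, 264, 203, 209 and 170 FPKM in R6/2 1 to 5. The highest R6/2 library was thus well below the lowest control, with a log2 change of -0.90 (SE 0.11, limma adjusted p = 0.000668). Glul, which encodes glutamine synthetase and turns the captured glutamate into glutamine (chromosome 1, 153899944 to 153909723), was at 237, 215, 206, 215 and 224 FPKM in controls and 131, 165, 146, 151 and 133 FPKM in R6/2. Exons of Glul and Slc1a2 also overlap less abundant genes. The groups of Glul were apart, with a log2 change of -0.60 (SE 0.08, limma adjusted p = 0.000876).

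Slc1a3, which encodes the second astrocyte glutamate transporter GLAST, was at 59.8, 61.6, 59, 45.4 and 53.1 FPKM in controls and 49.9, 36.4, 36.9, 38.3 and 53.8 FPKM in R6/2. Both R6/2 1 and R6/2 5 lay within the control range, and the log2 change of -0.38 did not pass (SE 0.14, limma adjusted p = 0.1). Without R6/2 5 it was -0.46 and passed (limma adjusted p = 0.0448). Slc7a10, an astrocyte carrier for small neutral amino acids including serine, was at a low 3.72 ± 1.05 FPKM in the control and 1.84 ± 0.589 FPKM in the R6/2 group (n = 5, SD, with a log2 change of -0.73, limma adjusted p = 0.0347). Exons of Slc7a10 overlap the more abundant Lrp3 on the other strand, and the strand setting of the counting is unknown. The call did not hold in 7 of the 10 fits that leave out a library: without Control 2, 3 or 4 or R6/2 1, 2, 4 or 5 the log2 change was -0.61 to -0.76 and the limma adjusted p was 0.0559 to 0.0795.

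The members' ratio within a library does not depend on scaling between libraries. Of 7 such pairs chosen by function, 2 differed between the groups after Benjamini-Hochberg adjustment over the 7 (two-sided exact permutation tests, with 252 ways to divide the libraries, where the smallest p is 0.00794). The ratio of Slc1a2 to Slc1a3 ranged from 6.34 to 8.48 over the controls and from 3.15 to 7.26 over the R6/2 libraries, with geometric means of 7.06 and 4.94 (exact permutation p = 0.0317, adjusted 0.0556). The ratio of Glul to Slc1a2 ranged from 0.470 to 0.634 over the controls and from 0.612 to 0.785 over the R6/2 libraries (exact permutation p = 0.0317, adjusted 0.0556), and it passed without Control 5 (adjusted 0.037). Neither ratio passed with all 10 libraries, and in both the groups overlapped.

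Among other genes of glutamate transport and the glutamine cycle, limma called 0 of 10 tested lower and 1 higher, with 6 at an unadjusted p under 0.05 in either direction and a median log2 change of 0.03. Slc1a4, a transporter of neutral amino acids related to the glutamate transporters, rose from 5.59 ± 1.02 to 9.13 ± 1.55 FPKM (n = 5, SD, with a log2 change of 0.62, limma adjusted p = 0.016). The log2 change was -0.43 for the glutamate dehydrogenase gene Glud1 (limma adjusted p = 0.0507) and 0.34 for the glutamine carrier gene Slc38a2 (limma adjusted p = 0.0557). Whether this list and the 35 genes differ was not tested.

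**Figure D2:**
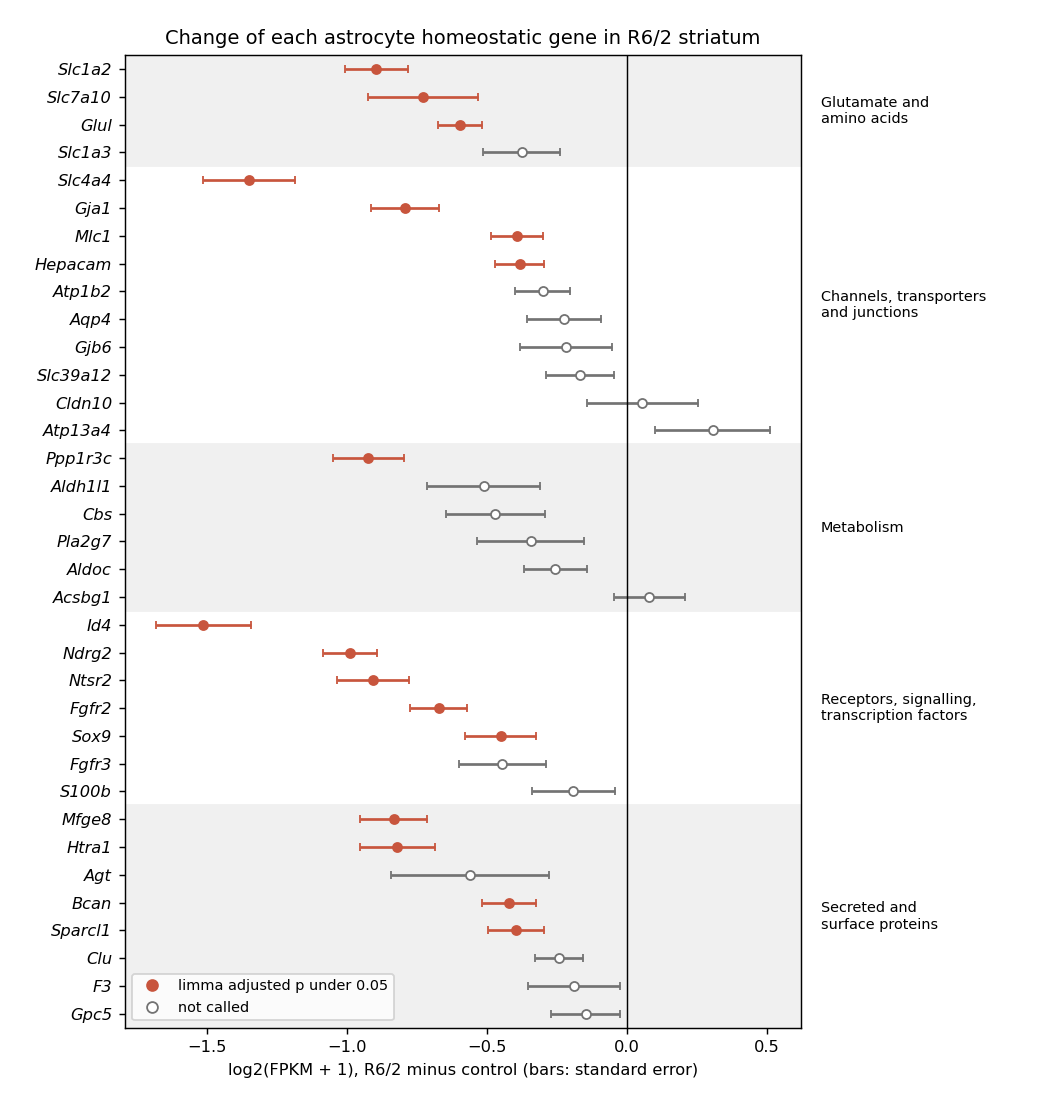
Log2 change of each gene in R6/2, as log2(FPKM + 1) in R6/2 minus control with its standard error as a bar, grouped by role. Filled red points are the 17 genes with a limma adjusted p under 0.05, all to the left of 0, and open grey points the 18 that were not called, of which Cldn10, Atp13a4 and Acsbg1 lie to the right of 0.

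Among channels, transporters and junction proteins 4 of 10 were called lower and 0 higher (median log2 change -0.26). Slc4a4, the sodium bicarbonate cotransporter NBCe1 (chromosome 5, 88886818 to 89239653), was at 83.3, 54.2, 53, 59.8 and 59.9 FPKM in controls and 23.7, 21.6, 18.2, 32.6 and 23 FPKM in R6/2. Control 1 was the highest by far, yet the lowest control was still well above the highest R6/2 library (log2 change -1.35, SE 0.17, limma adjusted p = 0.000575). Mlc1 and Hepacam encode membrane partners at astrocyte junctions whose loss causes a leukodystrophy with cysts. Mlc1 was at 8.07 ± 0.62 FPKM in the control and 5.92 ± 0.786 FPKM in the R6/2 group (n = 5, SD, with a log2 change of -0.39, limma adjusted p = 0.0202), and Hepacam at 11.98 ± 0.777 and 8.98 ± 1.11 FPKM (log2 change -0.38, limma adjusted p = 0.0181). The call of Mlc1 was lost without Control 1 (log2 change -0.37, limma adjusted p = 0.0501) or Control 3 (-0.37, 0.0516). The ratio of Mlc1 to Hepacam had a geometric mean of 0.673 in controls and 0.658 in R6/2 (exact permutation p = 0.746, adjusted 0.746).

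The 2 astrocyte connexins differed in their ratio to each other. Gja1, which encodes connexin 43 (chromosome 10, 56377330 to 56402513), was at 15.2, 14.5, 14.6, 15.3 and 9.99 FPKM in controls and 7.19, 6.99, 6.94, 8.30 and 8.33 FPKM in R6/2. Control 5 was low, but still above every R6/2 library (log2 change -0.79, SE 0.12, limma adjusted p = 0.00195). Gjb6, which encodes connexin 30, was at 13.7, 9.31, 10.5, 7.59 and 8.31 FPKM in controls and 7.04, 11, 7.01, 8.13 and 8.27 FPKM in R6/2. The groups overlapped broadly, and the log2 change of -0.22 did not pass (SE 0.16, limma adjusted p = 0.447). The ratio of Gja1 to Gjb6 ranged from 1.11 to 2.02 over the controls and from 0.634 to 1.02 over the R6/2 libraries, with every R6/2 library below every control (difference of the log2 ratio -0.63, exact permutation p = 0.00794, the smallest possible, adjusted 0.0278). Without Control 3 or any single R6/2 library the adjusted p was 0.0556 and the difference -0.50 (without R6/2 2) to -0.67 (without R6/2 1 or R6/2 4). Of 4 other connexin genes tested, 1 was called lower and 0 higher (median log2 change -0.52). It was Gjc3, which is expressed by oligodendrocytes, at 35.4 ± 7.73 FPKM in the control and 20.7 ± 1.60 FPKM in the R6/2 group (n = 5, SD, limma adjusted p = 0.00498), while Gjb1 gave a log2 change of -0.53 (limma adjusted p = 0.087).

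**Figure D3:**
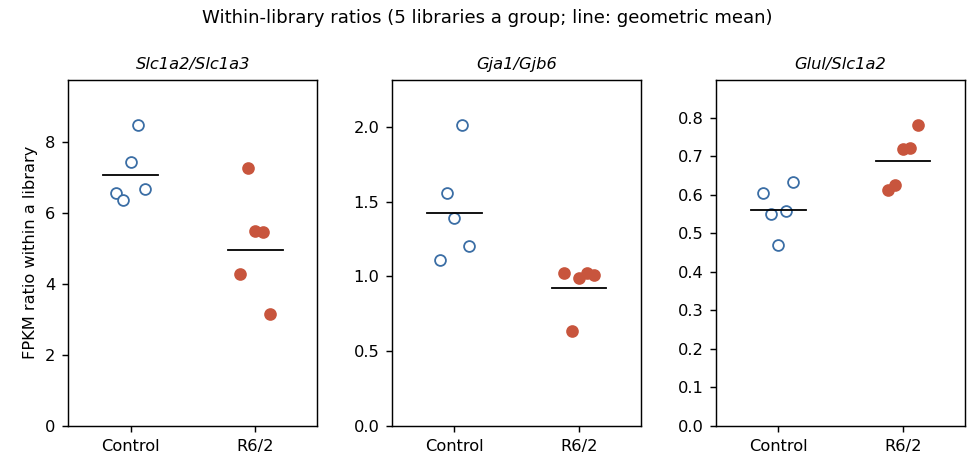
FPKM ratio of 3 gene pairs within each library, with open blue circles for the 5 control and filled red circles for the 5 R6/2 libraries and a line at the geometric mean. The groups do not overlap for Gja1 to Gjb6, lower in R6/2, while they overlap for Slc1a2 to Slc1a3 and for Glul to Slc1a2.

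Aqp4, the water channel of astrocyte endfeet, was at 11.7, 11.7, 10.6, 11.2 and 17.6 FPKM in controls and 9.07, 9.54, 11.4, 11.2 and 11.1 FPKM in R6/2. Control 5 stood apart from the other controls, and R6/2 1 and R6/2 2 lay below every control. The other R6/2 libraries lay within the control range, and the log2 change of -0.22 did not pass (limma adjusted p = 0.316). The dystrophin complex anchors this channel at the endfoot membrane, and of 11 of its genes tested 4 were called lower and 0 higher (median log2 change -0.30). Utrn, which encodes utrophin, fell from 13.2 ± 1.60 to 7.64 ± 0.653 FPKM (n = 5, SD, with a log2 change of -0.71, limma adjusted p = 0.000932). Sntb2, a syntrophin gene, gave a log2 change of -0.99 and the dystrobrevin gene Dtna of -0.31 (limma adjusted p = 0.0015 and 0.0384).

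Atp1b2, the beta subunit of the astrocyte sodium pump, was at 105, 96.2, 89.2, 100 and 94.9 FPKM in controls and 71.3, 100, 74.6, 74.4 and 75.3 FPKM in R6/2. All R6/2 libraries but R6/2 2 lay below every control, and R6/2 2 lay within the control range. The log2 change was -0.30 (SE 0.10, limma adjusted p = 0.0746), and without R6/2 2 it was -0.39 and passed (limma adjusted p = 0.00468). Of 9 other sodium pump genes tested, 2 were called lower and 1 higher (median log2 change -0.48). The pump regulator gene Fxyd6 was the gene called higher, with a log2 change of 0.64 (limma adjusted p = 0.00262).

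The remaining genes of that role were not called. The zinc transporter gene Slc39a12 gave a log2 change of -0.17 (limma adjusted p = 0.418), the transport ATPase gene Atp13a4 of 0.31 (0.383) and the tight junction gene Cldn10 of 0.05 (0.899), each p from limma. Atp13a4 was at 8.91 FPKM in R6/2 2 and between 3.11 and 5.23 FPKM in the other R6/2 libraries, and at 3.27 to 4.39 FPKM in controls. For Cldn10 the direction was not settled, as the log2 change was negative without Control 5 (-0.03), R6/2 2 (-0.02) or R6/2 3 (-0.04) and with the cortical marker level described below as a covariate (-0.06).

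Of 6 metabolic genes 1 was called lower and 0 higher (median log2 change -0.41). It was Ppp1r3c, a targeting subunit that brings protein phosphatase 1 to glycogen (chromosome 19, 36731731 to 36736653), at 10, 11.2, 12.2, 10.5 and 8.51 FPKM in controls and 5.73, 6.23, 3.86, 4.76 and 4.83 FPKM in R6/2. Every R6/2 library was below the lowest control (log2 change -0.92, SE 0.13, limma adjusted p = 0.00111). Aldoc, the brain aldolase of glycolysis and the most abundant of the 35 genes, was at 572, 473, 509, 544 and 404 FPKM in controls and 352, 431, 458, 397 and 451 FPKM in R6/2. The groups overlapped around Control 5, and the log2 change of -0.26 did not pass (limma adjusted p = 0.172). Aldh1l1, the folate enzyme gene widely used as a pan-astrocyte marker, was at 2.88 ± 0.878 FPKM in the control and 1.71 ± 0.561 FPKM in the R6/2 group (n = 5, SD, with a log2 change of -0.51, limma adjusted p = 0.129).

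The cystathionine beta-synthase gene Cbs gave a log2 change of -0.47 (limma adjusted p = 0.114), and without R6/2 1 it was -0.59 and passed (limma adjusted p = 0.0466). Pla2g7, which encodes a secreted phospholipase that inactivates platelet-activating factor, gave a log2 change of -0.34 (limma adjusted p = 0.289). The acyl-CoA synthetase gene Acsbg1 was at 9.21 ± 1.66 FPKM in the control and 9.71 ± 1.11 FPKM in the R6/2 group (n = 5, SD, with a log2 change of 0.08, limma adjusted p = 0.727). The ratio of Aldoc to Aldh1l1 spread widely, from 96.2 to 314 in controls and from 175 to 451 in R6/2 (exact permutation p = 0.23, adjusted 0.322).

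Of the receptors, signalling proteins and transcription factors 5 of 7 were called lower and 0 higher (median log2 change -0.67). Id4, an inhibitor of basic helix-loop-helix transcription factors (chromosome 13, 48261228 to 48266026), had the steepest fall of the 35 genes. It was at 26.3, 22.9, 28.9, 23.1 and 27.5 FPKM in controls and 6.57, 8.19, 6.11, 9.55 and 12.5 FPKM in R6/2. R6/2 5 was the highest of its group and was still far below every control (log2 change -1.51, SE 0.17, limma adjusted p = 0.000344). Ndrg2, an abundant cytoplasmic protein of astrocytes (chromosome 14, 51905271 to 51914158), was at 390, 319, 325, 338 and 321 FPKM in controls and 171, 193, 152, 186 and 149 FPKM in R6/2. The groups were wide apart, and it had the smallest p of the 35 genes (log2 change -0.99, SE 0.10, limma adjusted p = 0.000155).

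Ntsr2, the astrocyte neurotensin receptor (chromosome 12, 16653382 to 16660227), was at 20.6, 23.2, 21.1, 18.8 and 21 FPKM in controls and 10.5, 7.74, 12.9, 10.3 and 12.8 FPKM in R6/2. All 5 R6/2 libraries were below the lowest control (log2 change -0.91, SE 0.13, limma adjusted p = 0.00134). Fgfr2, a fibroblast growth factor receptor that oligodendrocytes also express, was at 30.6, 29.7, 26.5, 24.2 and 29.1 FPKM in controls and 14.6, 20.5, 15.9, 18.4 and 16.8 FPKM in R6/2, again without overlap (log2 change -0.67, SE 0.10, limma adjusted p = 0.00203). Its relative Fgfr3, which is the receptor more typical of astrocytes, was at 6.81 ± 1.61 FPKM in the control and 4.71 ± 0.926 FPKM in the R6/2 group (n = 5, SD, with a log2 change of -0.45, limma adjusted p = 0.0916). The ratio of Fgfr3 to Fgfr2 had geometric means of 0.239 and 0.271 (exact permutation p = 0.389, adjusted 0.454).

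Sox9, a transcription factor of astrocyte nuclei, was at 6.66 ± 1.18 FPKM in the control and 4.57 ± 0.648 FPKM in the R6/2 group (n = 5, SD, with a log2 change of -0.45, limma adjusted p = 0.043). Its call was lost without Control 1, 2, 3 or 4 or R6/2 1, 2, 3 or 4 (log2 change -0.39 to -0.46, limma adjusted p = 0.0782 to 0.0979). S100b, a calcium-binding protein, was at 35.8 ± 5.56 and 31.4 ± 6.04 FPKM (n = 5, SD, with a log2 change of -0.19, limma adjusted p = 0.458).

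Among secreted and surface proteins 4 of 8 were called lower and 0 higher (median log2 change -0.41). Mfge8, a bridging protein that tags particles for phagocytosis (chromosome 7, 79133768 to 79149060), was at 10, 10, 10.2, 10.7 and 10.2 FPKM in controls and 5.99, 4.37, 4.07, 6.82 and 5.69 FPKM in R6/2. Its control values were the tightest of the 35 genes, with a coefficient of variation of 2.78%, and no R6/2 library came near them (log2 change -0.83, SE 0.12, limma adjusted p = 0.00145). Htra1, a secreted serine protease (chromosome 7, 130936111 to 130985660), was at 11.9, 11.8, 8.69, 9.29 and 9.01 FPKM in controls and 6.68, 5.23, 3.95, 5.15 and 5.65 FPKM in R6/2. The groups did not overlap (log2 change -0.82, SE 0.14, limma adjusted p = 0.0032).

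Bcan encodes brevican, a proteoglycan of the perineuronal and perisynaptic matrix. It was at 29.9, 31, 32, 25.4 and 25.6 FPKM in controls and 23.5, 22.3, 19.9, 21.7 and 18.5 FPKM in R6/2, with a narrow gap between the groups (log2 change -0.42, SE 0.10, limma adjusted p = 0.0161). Sparcl1, which encodes the synapse-promoting matrix protein hevin, was at 224, 239, 206, 249 and 272 FPKM in controls and 166, 174, 217, 179 and 166 FPKM in R6/2. R6/2 3 lay within the control range (log2 change -0.40, SE 0.10, limma adjusted p = 0.027), and the call was lost without Control 2 or 4 or R6/2 1, 2 or 5 (log2 change -0.37 to -0.39, limma adjusted p = 0.0519 to 0.0569).

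The other 4 of that role were not called. Clu, which encodes the extracellular chaperone clusterin, was at 97.3 ± 6.80 and 82.2 ± 8.69 FPKM (n = 5, SD, with a log2 change of -0.24, limma adjusted p = 0.0906), and without R6/2 5 it was -0.30 and passed (limma adjusted p = 0.0165). The tissue factor gene F3 gave a log2 change of -0.19 (limma adjusted p = 0.529) and the glypican gene Gpc5 of -0.15 (limma adjusted p = 0.497). Agt, which encodes angiotensinogen, was the least abundant of the 35, at 0.683 to 2.26 FPKM in controls and 0.208 to 1.82 FPKM in R6/2 (log2 change -0.56, limma adjusted p = 0.24).

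Of a further 38 astrocyte genes outside the list, 13 were called lower and 1 higher (median log2 change -0.30). With the mean level of the cortical neuron markers described below as a covariate, 4 of the 38 were called lower and 0 higher (median -0.35). Ttyh1, a chloride channel family gene, fell from 148 ± 4.04 to 74.2 ± 4.34 FPKM (n = 5, SD, with a log2 change of -0.99, limma adjusted p = 1.19e-05). Grm3, a metabotropic glutamate receptor gene, fell from 29.6 ± 2.66 to 14.8 ± 1.26 FPKM, and Dio2, which activates thyroid hormone, from 14.7 ± 3.73 to 5.46 ± 1.12 FPKM (limma adjusted p = 8.08e-05 and 0.00121). The potassium channel gene Kcnj10, which encodes Kir4.1, gave a log2 change of -0.62 (limma adjusted p = 0.00278). The gene called higher was Nfib, a nuclear factor I gene also expressed in neurons, named after its value was seen, with a log2 change of 0.33 (limma adjusted p = 0.0474). It was not called without Control 1, 2, 3 or 4 or R6/2 1, 2, 4 or 5.

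Of 17 reactive astrocyte genes listed, 7 reached the minimum mean, and limma called 2 of these higher and 0 lower, with 2 at an unadjusted p under 0.05 (median log2 change 0.15). Of the 17, 5 were listed at 0 in at least 1 library. Among those below the minimum mean, which were not tested, the groups failed to overlap only in Cd44. Cd44, named after its values were seen, was at 0.530 to 2.54 FPKM in controls and 0.117 to 0.371 FPKM in R6/2. The genes called higher were Serpina3n (log2 change 1.06, limma adjusted p = 0.00301) and Cp (0.69, 0.0173), while Vim was at 0.45 (0.317). Gfap was at 5.25 ± 0.983 FPKM in the control and 5.74 ± 1.12 FPKM in the R6/2 group (n = 5, SD, with a log2 change of 0.11, limma adjusted p = 0.67). Some of these genes also mark other cells, and the difference between the reactive and the homeostatic list was not tested.

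**Figure D4:**
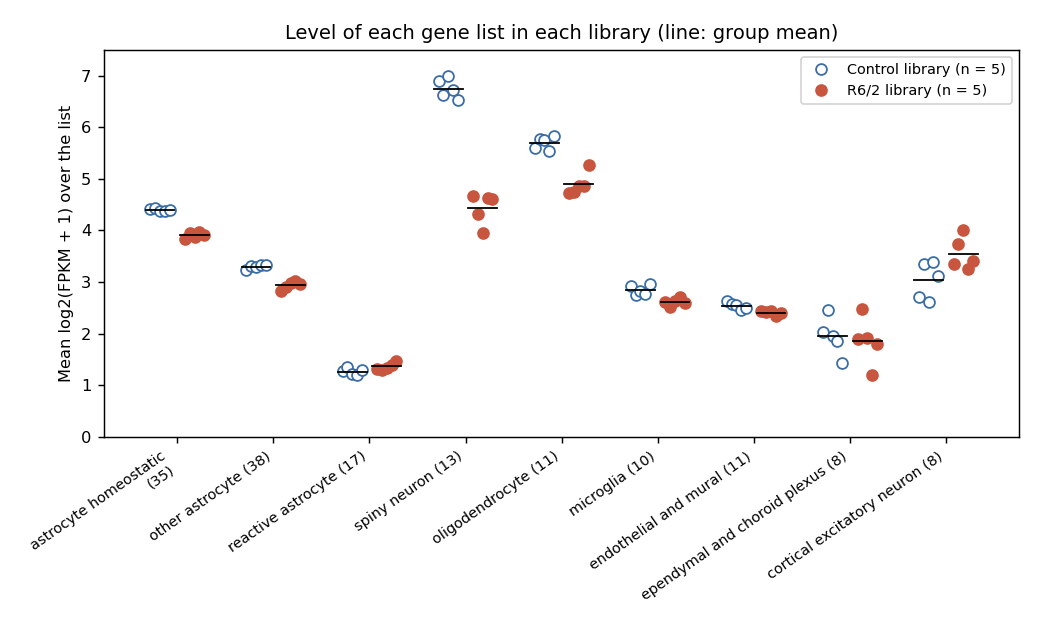
Mean log2(FPKM + 1) over each gene list in each library, with open blue circles for the 5 control and filled red circles for the 5 R6/2 libraries, a line at each group mean and the number of genes in parentheses. The 35 astrocyte homeostatic genes lie at 4.37 to 4.43 in controls and 3.83 to 3.96 in R6/2. These tight groups stand beside the wide drop of the spiny neuron list. The cortical list has a higher group mean in R6/2, but its groups overlap.

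The level of the 35 genes was even within each group. The mean log2(FPKM + 1) over them was 4.42, 4.43, 4.37, 4.37 and 4.40 in Controls 1 to 5 and 3.83, 3.95, 3.87, 3.96 and 3.91 in R6/2 1 to 5. Without each library in turn 14 to 17 of the 35 were called lower. R6/2 1 held the lowest R6/2 value in 13 of the 35 genes, R6/2 3 in 10, R6/2 2 in 6, R6/2 5 in 5 and R6/2 4 in 1.

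Markers of some other cells differed between the groups too, and their part in the fall of the 35 genes was not tested except where a value is given. All 13 spiny neuron markers were called lower (median log2 change -2.46), with the smallest p for Drd2, Penk and Pde10a, and their summed level was 2030 to 2560 FPKM in controls and 292 to 471 FPKM in R6/2. Of 11 oligodendrocyte markers 8 were lower and 0 higher (median -0.81), Mobp and Ugt8a among them, with sums of 1600 to 1820 FPKM and 753 to 1150 FPKM. Of 9 microglia markers tested 1 was lower, P2ry12 (log2 change -0.52), and 0 higher (median -0.18, with -0.33 for Cx3cr1 and -0.45 for C1qc), with sums of 77.5 to 88.8 FPKM and 65.4 to 71.7 FPKM. None of 6 oligodendrocyte precursor markers tested was called by limma (median -0.25, with 2 at an unadjusted p under 0.05), with log2 changes of -0.50 for Gpr17, -0.78 for Vcan and -0.36 for Pdgfra and sums of 49.1 to 58.8 FPKM and 37.7 to 59.4 FPKM.

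None of 9 endothelial and mural markers tested was called by limma, with 0 at an unadjusted p under 0.05 (median -0.11, sums of 92.9 to 114 FPKM and 85.5 to 96.5 FPKM). Pecam1, Tek and Cldn5 had the smallest p, with log2 changes of -0.32, -0.44 and -0.18. None of 6 ependymal and choroid plexus markers tested was called by limma either, with 1 at an unadjusted p under 0.05 (median 0.05). Their sum varied from 22.6 to 545 FPKM among controls and from 29.6 to 463 FPKM among R6/2 libraries, and the log2 change was -0.61 for Ccdc153, -0.36 for Rarres2 and 0.27 for Clic6. Of these other cell type lists, 1 microglia gene and 2 ependymal or choroid plexus genes were listed at 0 in at least 1 library.

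Of 8 cortical excitatory neuron markers 2 were called higher, among them Neurod2 (log2 change 1.23, limma adjusted p = 0.0126), and 1 lower, Nrgn (log2 change -0.81, limma adjusted p = 0.00515), which spiny neurons also express. Their mean log2(FPKM + 1) was 2.71, 3.36, 2.62, 3.39 and 3.12 in Controls 1 to 5 and 3.36, 3.74, 4.02, 3.25 and 3.40 in R6/2 1 to 5. With that mean as a covariate 12 of the 35 genes were called lower and 0 higher, with a median log2 change of -0.40, where 4.2% of all genes tested were called lower. The calls lost there were those of Mlc1 (log2 change -0.34, limma adjusted p = 0.19), Hepacam (-0.34, 0.169), Bcan (-0.33, 0.185), Sox9 (-0.46, 0.204) and Htra1 (-0.71, 0.0566). R6/2 3 had the highest cortical mean and the lowest spiny neuron mean of its group. Its mean over the 35 genes, 3.87, was above only that of R6/2 1 (3.83). R6/2 4 had the lowest cortical mean of its group, 3.25, and the highest mean over the 35 genes, 3.96. By contrast, R6/2 1 had the lowest mean over the 35 genes and a cortical mean of 3.36, above only that of R6/2 4. R6/2 2 had a cortical mean of 3.74, below only that of R6/2 3. Its mean over the 35 genes, 3.95, was below only that of R6/2 4. Whether these levels go together across the R6/2 libraries was not tested.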

How the data were processed

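RNA sequencing values came from 10 striatal libraries, 5 per group. The authors deposited a table of FPKM values, and the tools named, per the submitters' processing notes, are Cufflinks, Cuffdiff and STAR 2.4.0, on build GRCm38. Not given in the sources used here are the annotation, the strand setting and any scaling across libraries, and a second file was not analysed here. Column names were matched to the sample descriptions, and 47220 of 47632 IDs had a symbol. Positions came from GENCODE M21 (GRCm38), whose ID version matched for 24 of the 35 genes.

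Genes averaging 1 FPKM or more were fitted with limma 3.58.1 in R 4.3.3 (empirical Bayes with a mean-variance trend) on log2(FPKM + 1), which understates the change of low genes, with 8 residual degrees of freedom. The limma step and the exact permutation test were tested on simulated data. Pairs were compared as log2 ratios of FPKM. Alternatives were pseudocounts of 0.1 and 5 FPKM, no filter and a minimum mean of 5 FPKM, quantile normalization, rescaling to the protein-coding total, no trend, array weights, a cortical covariate (the mean of 8 cortical markers), a replicate block and leaving out each library.

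The members and lists were chosen with earlier results of these data known. All 35 members are named. Members that were called and had a group mean of at least 20 FPKM, or had a log2 change of at least 0.8 in size, are given with all 10 values, and Slc1a3, Gja1, Gjb6, Aqp4, Atp1b2 and Aldoc were added to these after their values were seen. Of each other list the 3 genes with the smallest p are named, and Gfap and Kcnj10 in any case. Some genes that meet these rules, and 1 of the 7 pairs, are not reported here. The list symbols Agxt2l1, Pc and Ppap2b were not matched to a row.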

Additional observations from a re-analysis of the deposited data

Results flagged for a closer look

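Among 70 groups of 5 values (35 genes in 2 groups), 9 had a library whose gap to the nearest other exceeded 0.71 of the group's range. Chance gives about 1 in 20. Control 5 accounted for 3 of them: Aqp4 at 17.6 FPKM (10.6 to 11.7 in the other controls), Pla2g7 at 49.3 FPKM (22.7 to 29.1) and Gja1 at 9.99 FPKM (14.5 to 15.3), the first 2 high and the last low. Control 1 was high for Slc4a4, at 83.3 FPKM (53 to 59.9 in the others), and for Ndrg2, at 390 FPKM (319 to 338). Mfge8 was at 10.7 FPKM in Control 4 (10 to 10.2 in the others), a small gap in a tight group. In R6/2, Atp1b2 was at 100 FPKM in R6/2 2 (71.3 to 75.3 in the others), Clu at 97.2 FPKM in R6/2 5 (76.3 to 81.8) and Sparcl1 at 217 FPKM in R6/2 3 (166 to 179).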

How the results depend on the processing

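Over the 10 processing alternatives and the 10 fits that leave out a library, 0 of the 35 genes were called higher and the median stayed negative. Of the 17 genes called lower, 10 were called in every alternative (Slc1a2, Glul, Gja1, Slc4a4, Ppp1r3c, Fgfr2, Ntsr2, Id4, Ndrg2 and Mfge8) and 7 lost the call in at least 1, while 4 of the others passed in at least 1. The count called lower was 11 after rescaling and 14 to 17 without each library. The median of the 35 was -0.28 with a pseudocount of 5 FPKM, -0.37 after quantile normalization, -0.31 after rescaling, and -0.45 to -0.40 without each library. For the 38 other astrocyte genes, 4 were called lower with the cortical covariate, 8 with the replicate block and 11 to 14 without each library, and 0 were called higher with a pseudocount of 0.1 FPKM, no filter, no trend, the covariate or the replicate block and 0 to 1 without each library. Their median was -0.19 with a pseudocount of 5 FPKM, -0.37 with a minimum mean of 5 FPKM, -0.26 after quantile normalization, -0.20 after rescaling, -0.35 with the covariate, and -0.33 to -0.27 without each library. The cause of these shifts was not tested, except that a larger pseudocount shrinks changes of low genes and the minimum of 5 FPKM tests 28 of the 35 and 23 of the 38. Without each library 0 to 3 pairs differed in ratio. The direction reversed for Cldn10 (-0.061 with the covariate, and -0.035 to 0.22 without each library, negative without Control 5, R6/2 2 or R6/2 3) and for the Mlc1 to Hepacam log2 ratio (-0.12 to 0.060 without each library, positive without R6/2 4). Of all genes tested, 1449 were called lower and 795 higher, against 668 and 191 with the covariate, 975 and 370 with the replicate block, 1277 and 1111 after quantile normalization and 1136 and 1522 after rescaling.

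Same-numbered libraries deviated together little (r of -0.05 to 0.05 across the genes tested). Only for number 5 was the same-numbered library the most alike in the other group, at an r of 0.05. These low values give no sign of pairing by number, but they cannot show that the libraries were not paired. With the replicate block 13 of the 35 were called lower, and Slc7a10 (limma adjusted p = 0.0578), Hepacam (0.0548), Sox9 (0.131) and Sparcl1 (0.114) were not. Depth is unknown, which limits what can be said of genes near 1 FPKM such as Agt.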

Other observations

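For 9 of the 35 genes an exon overlaps another gene in GENCODE M21: Slc1a2, Glul, Slc7a10, Aldh1l1, Pla2g7, Fgfr3, Fgfr2, Id4 and Gpc5. Without a known strand setting, reads of such partners cannot be told apart. Lrp3, on the other strand at Slc7a10, was at 20.3 FPKM in controls and 21.4 FPKM in R6/2, above the 3.72 and 1.84 FPKM of Slc7a10. Gm13872, on the other strand at Slc1a2, was at 5.72 and 4.09 FPKM, far below Slc1a2. The partner at Pla2g7, 1700071M16Rik, was at 1.31 FPKM in controls and 0.381 FPKM in R6/2. Glul has a processed pseudogene copy, Glns-ps1, with 96.8% identity over 1126 bases, which was at 0.423 FPKM or less in every library.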
